A study of Mus musculus with 2 samples.

Results

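CXCR2 and 4 chemokines that bind it, Cxcl1, Cxcl2, Cxcl3 and Cxcl5, were followed through the larger cell classes of sorted mouse oral tumours. The 5 genes were taken by symbol from the 32285 genes of the deposited tables. They were counted in barcodes with at least 200 detected genes and at most 10% mitochondrial unique molecular identifiers (UMIs), 4370 in the Momordicine-I library and 3364 in the vehicle library. The tumours grew from MOC2, a mouse oral carcinoma line, injected with Matrigel under the flank skin of C57BL/6 females, 6 to 7 weeks old. The treatment was an intraperitoneal injection once daily of Momordicine-I, a triterpenoid of bitter melon, at 30 mg/kg, or the DMSO and Captisol vehicle alone. There were 10 mice in an arm, and tumours from 3 of them were pooled before the sort with a CD45 antibody and propidium iodide. Both groups thus share the cell line, the host strain and the flank site, and each group is 1 library with no replicate. The series title places the question in macrophages and B lymphocytes of the tumour.

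CXCR2 is a G protein-coupled receptor carried by neutrophils, which follow gradients of its ligands out of the marrow and into inflamed or tumour tissue. The ligands share a glutamate-leucine-arginine stretch before their first cysteines, and macrophages, neutrophils, epithelial cells and stroma make them after signals such as interleukin-1, tumour necrosis factor and interleukin-17. Strong exposure to ligand causes arrestin-mediated uptake and desensitisation of the receptor, and the ligand transcripts carry AU-rich stretches that mark them for rapid decay.

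In mouse, Cxcl5, Cxcl3, Cxcl1 and Cxcl2 lie in that order on the plus strand of chromosome 5 (GENCODE vM21, GRCm38), within 147 kb. Cxcl5 spans chr5:90759360-90761624, Cxcl3 chr5:90786103-90789600, Cxcl1 chr5:90891241-90893115 and Cxcl2 chr5:90903871-90905938. Cxcr2 lies apart from them, at chr1:74153989-74161246 on the plus strand, and no other annotated gene overlaps any of the 5. Cxcl2 and Cxcl3 are close copies that share 161 stretches of 31 bases. The last 500 bases of their transcripts, the end that the assay reads, share 0 such stretches with each other. The other pairs of members shared none.

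RefSeq promoter windows on GRCm38.p6 were matched for 4 of the 5 members, Cxcl1, Cxcl2, Cxcl3 and Cxcr2. The stretches of 90 bases ahead of the 3 ligand genes are shown because the neighbours carry the same words in the same order. They are chr5:90786011-90786100 for Cxcl3, chr5:90891151-90891240 for Cxcl1 and chr5:90903781-90903870 for Cxcl2, all on the plus strand and written 5′ to 3′. Capitals mark GGGAATTTCCC, a form of the NF-kB recognition sequence, and ATAAAAGG, a form of the TATA box, which do not overlap each other.
Cxcl3: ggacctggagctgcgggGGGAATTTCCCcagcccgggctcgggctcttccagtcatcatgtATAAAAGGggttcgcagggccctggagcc
Cxcl1: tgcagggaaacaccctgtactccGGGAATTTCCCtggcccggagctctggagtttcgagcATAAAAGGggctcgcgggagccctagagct
Cxcl2: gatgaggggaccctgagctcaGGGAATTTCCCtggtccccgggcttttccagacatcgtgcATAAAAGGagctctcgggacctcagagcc

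Searched on both strands in the 250 bases upstream of all RefSeq starts, GGGAATTTCCC was found in 14 of 32851 windows (0.0426%), and ATAAAAGG in 507 (1.54%). The first word began 73 bases before the RefSeq start of Cxcl3, 71 before that of Cxcl1 and 97 before that of Cxcl2. The second began 29, 34 and 57 bases before the same starts. Neither word was found in the Cxcr2 window. A match describes these letters and is not a measurement of binding.

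The deposited tables held 4693 barcodes with 41804810 UMIs in the Momordicine-I library and 3642 barcodes with 33998491 UMIs in the vehicle library. Barcodes that passed the filters had a median of 5002 UMIs in the Momordicine-I library and 5760 in the vehicle library. The 2 libraries share 10 barcodes. Barcodes marked as doublets, 153 in the Momordicine-I and 91 in the vehicle library, formed a class of their own. Clustering without the members or the genes of their pathway gave 25 clusters, which were named from marker genes. Levels are given as CPM, the UMIs of a gene scaled to a total of 1000000 for all UMIs of a class in a library. A UMI tags the 3′ end of 1 molecule, so levels are not scaled by gene length, and the 5 genes can be read against each other as molecules counted. Because each group is a single library, no statistical test was made. Intervals are exact 95% intervals for counting error, which leave out variation between cells, mice and libraries. A gene is called higher or lower in a class where its ratio, Momordicine-I over vehicle, is at least 1.5 or at most the inverse of 1.5.

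Cxcl2 was among the most abundant transcripts of both libraries. Over all barcodes Cxcl2 stood at 16729 CPM in the Momordicine-I library and 18220 CPM in the vehicle library, the fifth highest of all genes in the Momordicine-I and the fourth in the vehicle library, for a ratio of 0.918 (0.915 to 0.921). Cxcl3 stood at 2054 CPM in the Momordicine-I library and 2997 CPM in the vehicle library (0.685, 0.679 to 0.692), just short of the call. Cxcl1 stood at 111 CPM with Momordicine-I and 121 CPM with vehicle (0.920, 0.881 to 0.960). Cxcl5 was the scarcest ligand, at 9.31 CPM from 62 cells in the Momordicine-I library and 21.5 CPM from 68 cells in the vehicle library, and the 1 member called lower (0.434, 0.382 to 0.492). The receptor Cxcr2 stood at 486 CPM in the Momordicine-I library and 437 CPM in the vehicle library (1.11, 1.09 to 1.14). Of the 5 members 1 was lower and 0 were higher, where 6.9% of all 14930 genes measured were lower and 6.78% higher.

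Counted together, the 4 ligands made up 1.89% of all UMIs in the Momordicine-I library and 2.14% in the vehicle library. Cxcl2 supplied 88.5% of the ligand UMIs in the Momordicine-I library and 85.3% in the vehicle library. Cxcl3 supplied 10.9% in the Momordicine-I library, against 14.0% in the vehicle library. Cxcl1 supplied 0.589% with Momordicine-I and 0.567% with vehicle, and Cxcl5 0.0492% with Momordicine-I and 0.10% with vehicle.

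The ligands fell into 2 patterns by source, a neutrophil pattern for Cxcl2 and Cxcl3 and a carcinoma pattern for Cxcl5, with Cxcl1 split between them. In neutrophil-like cells, 10 neutrophil markers such as S100a8 and Csf3r made up 8.24% of UMIs with Momordicine-I and 8.46% with vehicle. All 10 were also detected in carcinoma-like cells, at 0.0667% of UMIs with Momordicine-I and 0.180% with vehicle. Neutrophil-like cells held 72.7% of Cxcl2 UMIs in the Momordicine-I library and 76.1% in the vehicle library. They held 71.7% of Cxcl3 UMIs in the Momordicine-I library and 76.3% in the vehicle library. The class was 50.9% of Momordicine-I cells (2223 cells) and 50.8% of vehicle cells (1709 cells), and had 34.3% of all UMIs in the Momordicine-I library and 35.5% in the vehicle library. Monocyte-like cells were next, with 8.38% of Cxcl2 UMIs in the Momordicine-I and 6.33% in the vehicle library. They held 8.19% of Cxcl3 UMIs with Momordicine-I and 7.26% with vehicle.

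Cxcl5, known as an epithelial neutrophil attractant, came from carcinoma-like cells. In these cells, which passed the CD45 sort, 9 carcinoma markers made up 0.545% of UMIs with Momordicine-I and 0.586% with vehicle. In neutrophil-like cells 8 of the 9 were also detected in each library, at 0.0060% of UMIs with Momordicine-I and 0.0048% with vehicle. Carcinoma-like cells held 90.1% of Cxcl5 UMIs in the Momordicine-I library (86.7 to 93%) and 93.8% in the vehicle library (91.8 to 95.5%). For Cxcl1, carcinoma-like cells held 50.4% in the Momordicine-I library (48.9 to 51.8%) and 47.6% in the vehicle library (46.0 to 49.1%). Neutrophil-like cells held a further 34.9% of Cxcl1 UMIs in the Momordicine-I library and 40.4% in the vehicle library. The class had 273 cells in the Momordicine-I library, 6.25% of its barcodes, and 135 in the vehicle library, 4.01%. Because the sort was for CD45, the share of carcinoma cells in the libraries is not their share in the tumour, and the source shares hold for the sorted cells.

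**Figure D1:**
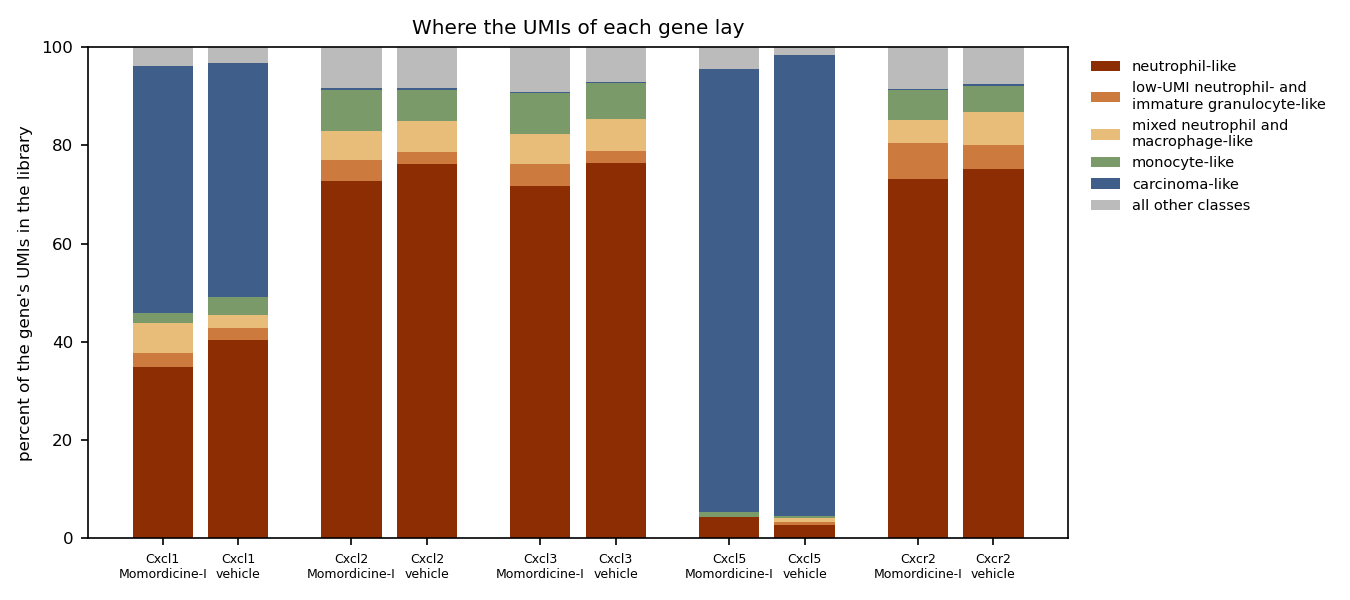
Share of each gene's UMIs by cell class (percent of the gene's UMIs in the library, vertical axis) as stacked bars, with a Momordicine-I and a vehicle bar for each gene and classes as colours. Neutrophil-like cells hold most Cxcl2, Cxcl3 and Cxcr2 in both libraries, and carcinoma-like cells hold 90.1% of Cxcl5 UMIs in the Momordicine-I and 93.8% in the vehicle library.

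The receptor followed the neutrophils. Neutrophil-like cells held 73.1% of Cxcr2 UMIs in the Momordicine-I library and 75.1% in the vehicle library. Neutrophil-like cells of low UMI count held a further 5.08% with Momordicine-I and 2.43% with vehicle. Monocyte-like cells held 6.16% with Momordicine-I and 5.37% with vehicle. The cluster of mixed neutrophil and macrophage markers held 4.58% with Momordicine-I and 6.64% with vehicle. The ligands Cxcl2 and Cxcl3 and their receptor had the same leading class in both libraries. Basophil-like cells, 45 in the Momordicine-I and 65 in the vehicle library, were too few for a call. Their median vehicle cell had 4258 CPM of Cxcl2 and 213 CPM of Cxcr2. The median monocyte-like vehicle cell had 7408 CPM of Cxcl2 and 59.1 CPM of Cxcr2. Neutrophil markers made up 1.43% of the basophil-like UMIs of both libraries together.

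Within neutrophil-like cells Cxcl3 had the lowest ratio of the 4 abundant members. Cxcl3 stood at 4299 CPM in the Momordicine-I library (59355 UMIs) and 6432 CPM in the vehicle library (75863 UMIs), a ratio of 0.668 (0.661 to 0.676), just short of the call and past it under 5 of 14 other ways of processing. Of all 10822 genes measured in the class, 4.43% had a lower ratio. A Cxcl3 UMI was found in 70.4% of Momordicine-I cells and 84.6% of vehicle cells, and in 57.3% of Momordicine-I cells and 72.8% of vehicle cells when every cell was thinned to 1500 UMIs. The median neutrophil-like cell had 742 CPM of Cxcl3 in the Momordicine-I library and 2681 CPM in the vehicle library. The 10% of cells with most Cxcl3 held 56.3% of the class's Cxcl3 UMIs in the Momordicine-I library and 48.0% in the vehicle library.

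Cxcl2 was nearly universal in these cells. It stood at 35485 CPM in the Momordicine-I library and 39007 CPM in the vehicle library (0.910, 0.906 to 0.913), which made it the second most abundant gene of the class in the Momordicine-I library and the most abundant in the vehicle library. After thinning, 97.2% of Momordicine-I cells and 99% of vehicle cells had a Cxcl2 UMI. The median cell had 26733 CPM in the Momordicine-I library and 30369 CPM in the vehicle library.

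Cxcl1, the murine KC chemokine, was found in a minority of neutrophil-like cells. It stood at 113 CPM in the Momordicine-I library and 138 CPM in the vehicle library (0.824, 0.768 to 0.884), and after thinning 4.49% of Momordicine-I cells and 5.73% of vehicle cells had a UMI. Cxcl5 had 16 UMIs over all neutrophil-like cells of the Momordicine-I library and 20 over those of the vehicle library. Cxcr2 stood at 1037 CPM in the Momordicine-I library and 924 CPM in the vehicle library (1.12, 1.09 to 1.15). Its thinned share of cells was 68.3% in the Momordicine-I library and 62.4% in the vehicle library.

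Of the 5 members 0 were called higher and 0 lower in neutrophil-like cells, where 12.9% of all genes measured were higher and 4.39% lower. The median log2 ratio of all genes in the class was 0.15. Taken relative to that median, the ratio was 0.602 for Cxcl3, which is past the call, and the log2 ratio was 0.016 for Cxcr2. The share of all genes with a lower ratio was 11.6% for Cxcl1, 19.5% for Cxcl2 and 52.0% for Cxcr2. Neutrophil markers made up 8.24% of the class's UMIs in the Momordicine-I library and 8.46% in the vehicle library, and the median cell had 4696 UMIs with Momordicine-I and 5261 UMIs with vehicle.

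**Figure D2:**
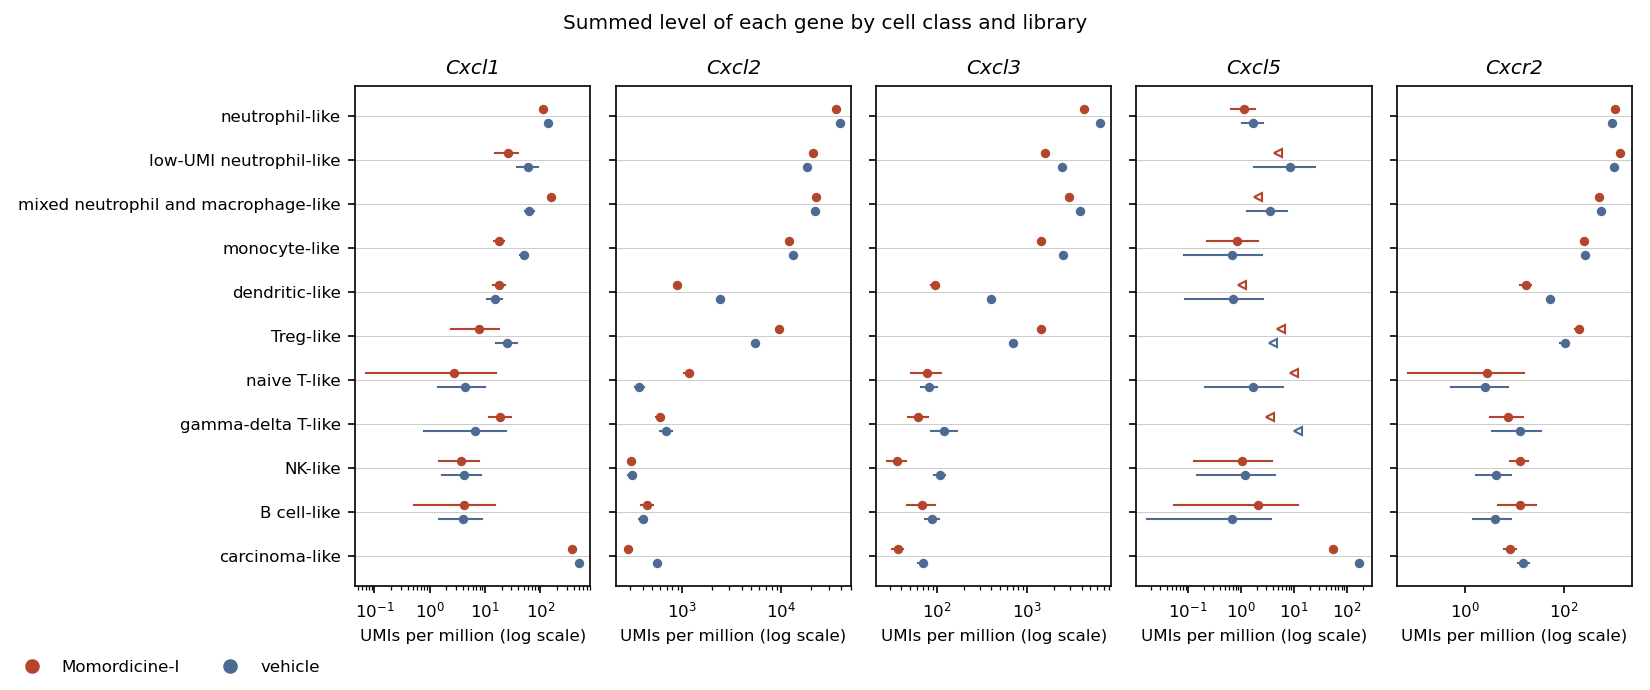
Level of each gene (CPM of the class, log axis) in the 11 classes with at least 50 cells and 100000 UMIs in each library, with exact 95% intervals for counting error as bars. Open left-pointing triangles mark the upper limit where a class had 0 UMIs. Neutrophil-like cells stand at 35485 CPM of Cxcl2 with Momordicine-I and 39007 CPM with vehicle, and carcinoma-like cells at 55.1 CPM of Cxcl5 with Momordicine-I and 172 CPM with vehicle.

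The neutrophil-like class was made of 6 clusters, drawn without the members, whose ratios are given as descriptions. In cluster 9, led by Siglecf and Csf1 (466 Momordicine-I and 331 vehicle cells), Cxcl3 was lower, at 1670 CPM in the Momordicine-I library and 4090 CPM in the vehicle library (0.408, 0.392 to 0.425). Its thinned share of cells with Cxcl3 was 36.2% in the Momordicine-I library and 60.4% in the vehicle library. Neutrophils with high Siglecf are known from mouse lung tumours. Cxcl1 was lower there too, at 80.0 CPM in the Momordicine-I library and 120 CPM in the vehicle library (0.666, 0.539 to 0.823), so that 2 of 4 members measured were lower, where 5.5% of all genes were. Without the cell with most Cxcl1 UMIs in each library the Cxcl1 ratio was 0.687, no call. Cxcl2 stood at 30157 CPM in the Momordicine-I library and 40617 CPM in the vehicle library (ratio 0.742).

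Cluster 8, led by Retnlg, S100a8 and Ly6g, genes of mature neutrophils, had the lowest Cxcl2 and the highest Cxcr2 of the 6 in both libraries. Its Cxcr2 stood at 1456 CPM in the Momordicine-I library and 1283 CPM in the vehicle library, and its Cxcl2 at 21433 CPM with Momordicine-I and 24989 CPM with vehicle. Cxcl3 was lower in it, at 2435 CPM in the Momordicine-I library and 3820 CPM in the vehicle library (ratio 0.637), and 5.13% of all genes were lower. Cxcl1 was higher, at 35.3 CPM in the Momordicine-I library and 16.3 CPM in the vehicle library (2.17, 1.39 to 3.46), and 15.9% of all genes were higher.

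Cxcl1 had the widest range of ratios among the clusters. In cluster 3, led by the acute-phase gene Saa3 and by Ccrl2, Cxcl1 was lower, at 144 CPM in the Momordicine-I library and 302 CPM in the vehicle library (0.477, 0.425 to 0.535), where 5.42% of all genes were lower and 12.8% higher. In cluster 1, led by Prok2, Ero1l and Nos2, Cxcl1 was higher, at 134 CPM in the Momordicine-I library and 87.8 CPM in the vehicle library (1.53, 1.30 to 1.79), where 11.4% of all genes were higher and 6.05% lower. One cell held 26.6% of these Cxcl1 UMIs in the Momordicine-I library and 14% in the vehicle library, and the ratio without both was 1.30, no call. A Cxcl1 UMI was found in 9.58% of the Momordicine-I cells and 13.8% of the vehicle cells of cluster 1, so no direction is read there. In cluster 16, led by the interferon-induced genes Rsad2 and Ifit1, Cxcl1 stood at 145 CPM in each library.

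No member was called in cluster 16, where 16.5% of all genes were higher and 6.54% lower, or in cluster 2, led by Pfkfb3 and Tiparp, where 10.6% were higher and 7.3% lower. Without the top cells, Cxcl3 in cluster 16 had a ratio of 0.648, past the call. Cxcl3 had a ratio below 1 in all 6 clusters, between 0.408 in cluster 9 and 0.811 in cluster 1. Cxcr2 lay between 1.05 and 1.20 in all 6, and none reached the call. Cxcl2 lay between 0.742 and 1.0.

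**Figure D3:**
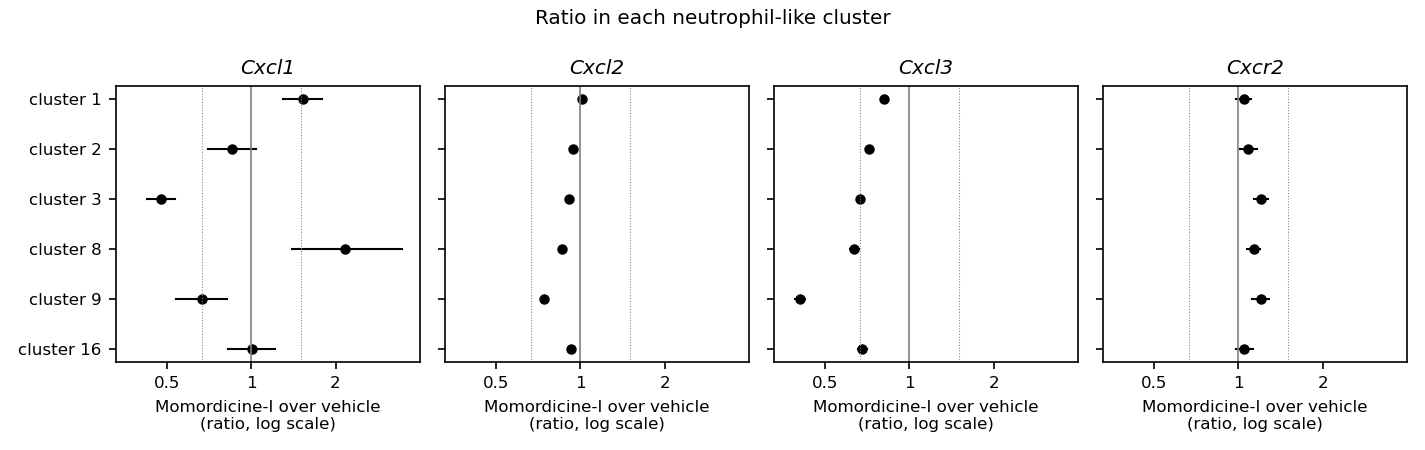
Ratio of Momordicine-I over vehicle (log axis) of Cxcl1, Cxcl2, Cxcl3 and Cxcr2 in the 6 neutrophil-like clusters, with exact 95% intervals for counting error as bars, a solid line at 1 and dotted lines at 1.5 and its inverse. Cxcl3 lies left of 1 in each cluster, at 0.408 in cluster 9, and Cxcl1 lies between 0.477 in cluster 3 and 2.17 in cluster 8.

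Neutrophil-like cells of low UMI count and immature granulocyte-like cells were kept apart from these clusters. The low-UMI neutrophil-like cells (367 in the Momordicine-I and 214 in the vehicle library) had Cxcl3 lower, at 1565 CPM in the Momordicine-I library and 2445 CPM in the vehicle library (ratio 0.640, and 0.668 without the top cells, no call). They also had Cxcl1 lower, from 19 UMIs in the Momordicine-I and 21 UMIs in the vehicle library (0.422, 0.215 to 0.825), so 2 of 4 members were lower beside 11% of all genes. Cxcl2 stood at 21017 CPM in the Momordicine-I library and 18136 CPM in the vehicle library, and Cxcr2 at 1336 CPM with Momordicine-I and 1017 CPM with vehicle. Immature granulocyte-like cells, marked by Ngp and Camp, were too few for a call, at 54 in the Momordicine-I and 38 in the vehicle library. They had 33407 CPM of Cxcl2 in the Momordicine-I library and 15272 CPM in the vehicle library, and 1105 CPM of Cxcr2 with Momordicine-I and 603 CPM with vehicle.

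Ligand and receptor were found in the same cells. After thinning to 1500 UMIs, Cxcr2 was found in 67.1% of Momordicine-I neutrophil-like cells with Cxcl3 and 69.9% of those without it. In the vehicle library Cxcr2 was found in 62.8% of cells with Cxcl3 and 61.1% of those without. The direction differed by cluster. In cluster 1 Cxcr2 was found in 59.8% of Momordicine-I cells with Cxcl3 and 34.5% without, and in 52.8% and 38.0% of vehicle cells. In cluster 8 it was found in 78.3% of Momordicine-I cells with Cxcl3 and 84.3% without, and in 73.3% and 74.8% of vehicle cells. Among cells with Cxcl2, Cxcr2 was found in 68.1% of Momordicine-I cells and 62.6% of vehicle cells.

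When the cells of each library were put in 4 equal groups by their thinned Cxcl2 count, the share with Cxcl3 climbed with Cxcl2. From the lowest to the highest Cxcl2 group it was 32.2, 53.8, 65.6 and 77.4% in the Momordicine-I library, and 54.6, 72.9, 78.8 and 84.7% in the vehicle library. The gap between libraries was widest among cells with little Cxcl2. The Cxcr2 share was 69.7, 69.2, 68.6 and 65.8% over the same groups in the Momordicine-I library, and 58.8, 63.3, 66.5 and 60.8% in the vehicle library. The mean Cxcr2 count per thinned cell fell over the Momordicine-I groups, at 1.91, 1.62, 1.43 and 1.34 UMIs. Over the vehicle groups it was 1.31, 1.39, 1.48 and 1.27 UMIs. The groups were cut within each library, and the lowest held 0 to 18 Cxcl2 UMIs per cell in the Momordicine-I library and 0 to 24 in the vehicle library.

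**Figure D4:**
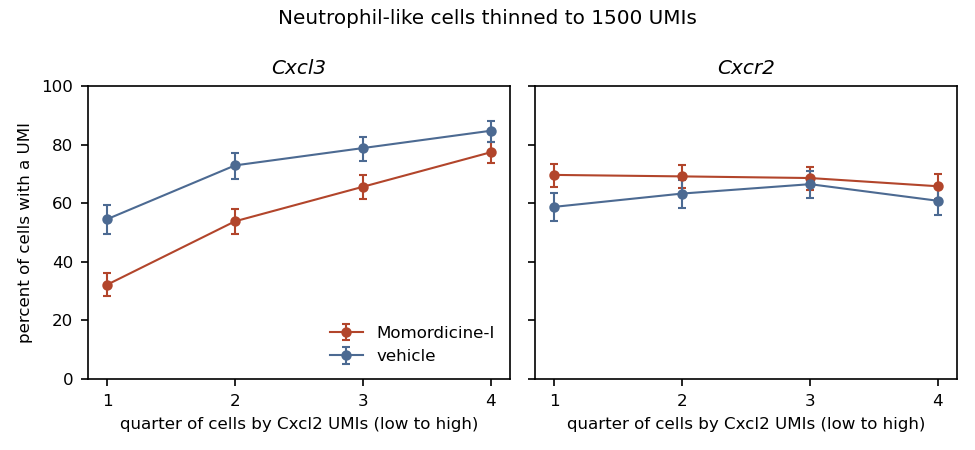
Share of neutrophil-like cells with a Cxcl3 or a Cxcr2 UMI (percent, vertical axis) in 4 equal groups of cells ordered from low to high Cxcl2 count (horizontal axis), after thinning to 1500 UMIs, with exact 95% intervals for counting error as bars. Cxcl3 runs between 32.2 and 77.4% over the Momordicine-I groups and between 54.6 and 84.7% over the vehicle groups. The share of cells with Cxcr2, which is not its mean count, lies between 58.8 and 69.7%.

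In carcinoma-like cells 4 of the 5 members were lower and 0 higher, where 11.4% of all genes measured were lower and 6.64% higher. Cxcl5 stood at 55.1 CPM in the Momordicine-I library (338 UMIs) and 172 CPM in the vehicle library (668 UMIs), a ratio of 0.320 (0.280 to 0.366). A Cxcl5 UMI was found in 12.5% of Momordicine-I cells and 20% of vehicle cells, and thinned to 1500 UMIs in 4.58% of 131 Momordicine-I cells and 11.5% of 52 vehicle cells. The single cell with most Cxcl5 held 11.8% of the UMIs in the Momordicine-I and 20.8% in the vehicle library, and the ratio without these cells was 0.333. Depth was uneven in this class, with a median of 1325 UMIs in the Momordicine-I library and 980 in the vehicle library. Among the cells over 10000 UMIs, 64 in the Momordicine-I and 27 in the vehicle library, Cxcl5 stood at 57.6 CPM with Momordicine-I and 157 CPM with vehicle (ratio 0.368). Among the others it had 4 UMIs in the Momordicine-I library and 83 in the vehicle library. The cells over 10000 UMIs held 5795749 UMIs of all genes with Momordicine-I and 3737787 with vehicle. The other cells held 333816 with Momordicine-I and 142062 with vehicle. The levels in the class, and so its calls, rest largely on the deeper cells. The 27 deeper vehicle cells are fewer than the minimum set for a class. This split by depth was chosen after the data were seen.

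Cxcl1 was the member without a call in carcinoma-like cells. It stood at 369 CPM in the Momordicine-I library (2259 UMIs) and 493 CPM in the vehicle library (1911 UMIs), a ratio of 0.748 (0.704 to 0.796). The 10% of carcinoma-like cells with most Cxcl1 held 99.1% of its UMIs in the Momordicine-I library and 99% in the vehicle library, and the top cell alone 32.0% with Momordicine-I and 37.0% with vehicle. A Cxcl1 UMI was found in 17.6% of Momordicine-I cells and 20% of vehicle cells, or 13% of Momordicine-I cells and 19.2% of vehicle cells after thinning.

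The other 3 members called lower in carcinoma-like cells were Cxcl2, Cxcl3 and Cxcr2. Cxcl2 stood at 287 CPM in the Momordicine-I library and 559 CPM in the vehicle library (ratio 0.515), Cxcl3 at 36.9 CPM with Momordicine-I and 69.6 CPM with vehicle (0.530) and Cxcr2 at 8.32 CPM with Momordicine-I and 15.2 CPM with vehicle (0.547). Neutrophil markers stood at 667 CPM in the carcinoma-like cells of the Momordicine-I library and 1802 CPM in those of the vehicle library. At the ratio of member to marker UMIs seen in neutrophil-like cells, that much marker RNA would carry its own share of each member. Measured Cxcl2 was 1.00 times that share with Momordicine-I and 0.672 times with vehicle, while measured Cxcl5 was 5883 times it with Momordicine-I and 4768 times with vehicle. The part of neutrophil RNA in the carcinoma-like levels and ratios was not tested. The log2 ratio of Cxcr2 was 0.47 after thinning, the opposite direction, from few UMIs. In carcinoma-like cells under a limit of 0.748% UMIs from neutrophil markers the Cxcl5 ratio was 0.331, and Cxcl5 stood at 55.4 CPM with Momordicine-I and 167 CPM with vehicle.

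Ppbp, another CXCR2 ligand, was looked at in carcinoma-like cells after its values were seen. It stood at 251 CPM in the Momordicine-I library and 75.5 CPM in the vehicle library (3.32, 2.93 to 3.78), where 6.64% of all genes were higher. A Ppbp UMI was found in 14.7% of the Momordicine-I cells and 13.3% of the vehicle cells. One cell held 40.3% of its UMIs in the Momordicine-I library and 45.4% in the vehicle library. Without these cells Ppbp stood at 154 CPM with Momordicine-I and 44.5 CPM with vehicle (3.46, 2.92 to 4.12). Ppbp is best known from platelets, whose markers made up 0.000375% of carcinoma-like UMIs in the Momordicine-I library and 0.000541% in the vehicle library, with 3 of 5 detected in each.

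Free RNA in droplets gives UMIs of abundant genes in cells that do not make them. In B cell-like cells, which are not known to make them in quantity, a Cxcl2 UMI was found in 85.9% of 92 Momordicine-I cells and 85.1% of 222 vehicle cells, and after thinning in 46.1% of Momordicine-I cells and 39.4% of vehicle cells. Their median depth was 4813 UMIs in the Momordicine-I library and 6021 in the vehicle library. Their Cxcl2 level was 440 CPM in the Momordicine-I library and 401 CPM in the vehicle library, and their Cxcl3 level 68.0 CPM with Momordicine-I and 88.7 CPM with vehicle. Cxcr2 had 6 UMIs in the B cell-like cells of each library, Cxcl5 had 1 in each, and Cxcl1 had 2 in the Momordicine-I and 6 in the vehicle library. Of the 2 members measured, 0 were called there, where 10.7% of all genes were higher and 15.0% lower. NK-like cells, at 308 CPM with Momordicine-I and 313 CPM with vehicle, were below the B cell-like level of Cxcl2 in both libraries, and gamma-delta T-like cells stood at 592 CPM with Momordicine-I and 696 CPM with vehicle. Shares of cells and levels near these are read as background.

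Monocyte-like cells stood above the B cell-like levels of Cxcl2 and Cxcl3, and also had a larger share of neutrophil-marker UMIs. Cxcl3 was lower in them, at 1422 CPM in the Momordicine-I library and 2471 CPM in the vehicle library (0.576, 0.557 to 0.595), while Cxcl2 stood at 11845 CPM with Momordicine-I and 13090 CPM with vehicle (0.905, 0.893 to 0.917). Cxcl1 was lower as well, at 18.0 CPM in the Momordicine-I library and 51.3 CPM in the vehicle library (0.351, 0.266 to 0.461), but 1 vehicle cell held 48.7% of the vehicle UMIs, and the log2 ratio was 0.39 after thinning. Of 4 members measured 2 were lower and 0 higher, where 10.2% of all genes were lower and 5.57% higher. Neutrophil markers stood at 20475 CPM (2.05%) in the Momordicine-I and 20940 CPM (2.09%) in the vehicle monocyte-like cells. In B cell-like cells they made up 0.0678% of UMIs with Momordicine-I and 0.0609% with vehicle. The part of neutrophil RNA in the monocyte-like levels was not tested. Under the 0.748% limit on neutrophil markers there were 153 Momordicine-I and 67 vehicle monocyte-like cells. Cxcl2 stood at 2802 CPM with Momordicine-I and 3581 CPM with vehicle in them. That limit is above the B cell-like share, so cells under it can still carry neutrophil RNA. Cxcl3 stood at 254 CPM with Momordicine-I and 587 CPM with vehicle there (ratio 0.433), lower in the Momordicine-I library, and Cxcr2 at 26.2 CPM with Momordicine-I and 23.2 CPM with vehicle. Cxcl1 had 20 UMIs with Momordicine-I and 3 with vehicle under the limit, the opposite direction.

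In the mixed cluster of neutrophil and macrophage markers Cxcl1 was higher. Cxcl1 stood at 155 CPM in the Momordicine-I library (274 UMIs) and 63.3 CPM in the vehicle library (109 UMIs), a ratio of 2.46 (1.96 to 3.09), so 1 of 4 members was higher and 0 lower, where 8.86% of all genes were higher and 8.22% lower. Its top cell held 23.7% of the Cxcl1 UMIs in the Momordicine-I library and 22.0% in the vehicle library. Cxcl2 stood at 22616 CPM in the Momordicine-I library and 21824 CPM in the vehicle library. Cxcl3 stood at 2936 CPM with Momordicine-I and 3851 CPM with vehicle (ratio 0.762) and Cxcr2 at 508 CPM with Momordicine-I and 559 CPM with vehicle. In this clustering macrophage markers led no cluster apart from the mixed one. At Leiden resolution 0.5 a macrophage-like cluster formed, with 415 Momordicine-I and 276 vehicle cells, in which the members' levels were not analysed here.

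Dendritic-like and regulatory T (Treg)-like cells were called in opposite directions, and the level of neutrophil markers differed the same way. The part of that neutrophil RNA was not tested beyond the values given with it. In dendritic-like cells 3 of 4 members were lower, where 8.88% of all genes were, with Cxcl2 at 887 CPM in the Momordicine-I library and 2399 CPM in the vehicle library (ratio 0.370). Cxcl3 stood at 95.2 CPM with Momordicine-I and 397 CPM with vehicle (0.240) and Cxcr2 at 17.1 CPM with Momordicine-I and 52.6 CPM with vehicle (0.325). Without removal of the doublet-marked barcodes none of these 3 calls held, with ratios of 0.847 for Cxcl2, 0.931 for Cxcl3 and 0.855 for Cxcr2. Neutrophil markers stood at 1897 CPM in the Momordicine-I and 3912 CPM in the vehicle dendritic-like cells. In Treg-like cells 3 of 4 members were higher, where 9.07% of all genes were, with Cxcl2 at 9409 CPM in the Momordicine-I library and 5411 CPM in the vehicle library (1.74). Cxcl3 stood at 1414 CPM with Momordicine-I and 692 CPM with vehicle (2.04) and Cxcr2 at 195 CPM with Momordicine-I and 103 CPM with vehicle (1.91). Neutrophil markers stood at 20501 CPM in the Momordicine-I and 9140 CPM in the vehicle Treg-like cells. Under the 0.748% limit on neutrophil markers, Treg-like Cxcl2 stood at 985 CPM with Momordicine-I and 787 CPM with vehicle (1.25, no call) and Cxcl3 at 62.1 CPM with Momordicine-I and 107 CPM with vehicle (0.581), the opposite direction. Cxcr2 had 4 UMIs with Momordicine-I and 9 with vehicle under it. Dendritic-like Cxcl2 stood at 286 CPM with Momordicine-I and 670 CPM with vehicle under that limit (0.427, lower). Cxcl1 in Treg-like cells was lower from 5 UMIs in the Momordicine-I and 23 in the vehicle library, where 1 vehicle cell held 82.6% of them and 13.4% of all genes were lower, and its log2 ratio was 0.48 without the top cell of each library.

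**Figure D5:**
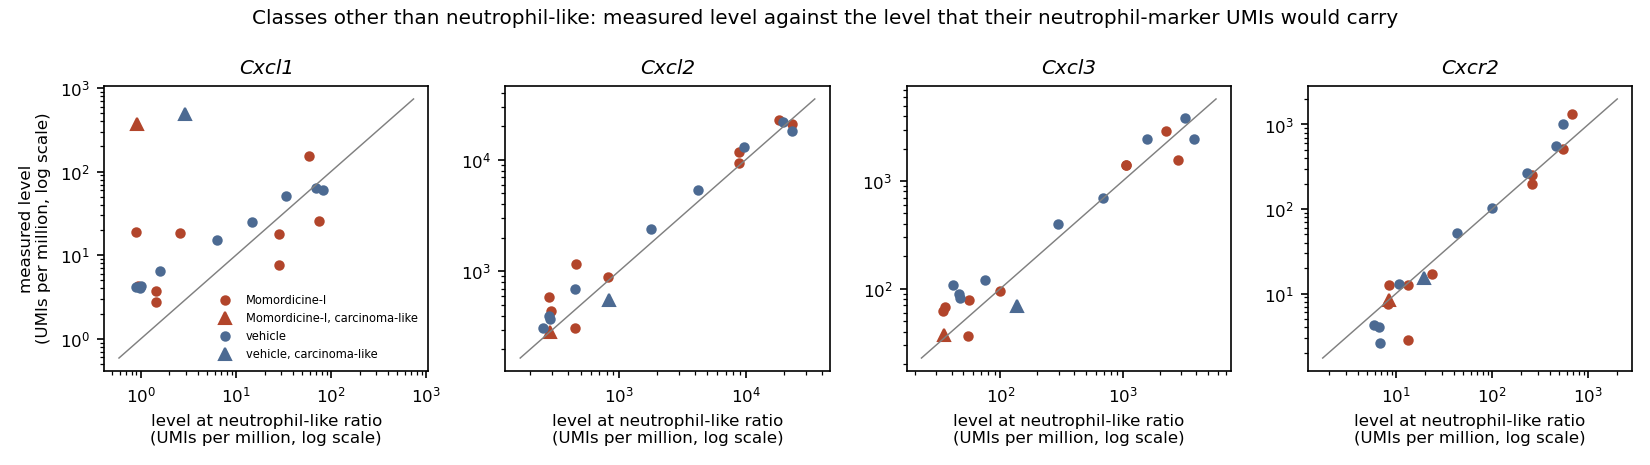
Measured level (CPM, log axis) of Cxcl1, Cxcl2, Cxcl3 and Cxcr2 in each class other than neutrophil-like, against the level that its neutrophil-marker UMIs would carry at the ratio of neutrophil-like cells (CPM, log axis), with a line where both are equal. Carcinoma-like cells, drawn as triangles, stand 402 times above the line for Cxcl1 with Momordicine-I and 168 times with vehicle, while most Cxcl2, Cxcl3 and Cxcr2 points lie near it.

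In the remaining lymphoid classes the members stood near background. Cxcl3 was lower in NK-like cells, at 36.0 CPM in the Momordicine-I library and 107 CPM in the vehicle library (0.336), with 39.7% of the vehicle UMIs in 1 cell and 9.08% of all genes lower. Cxcl3 was also lower in gamma-delta T-like cells, at 62.6 CPM in the Momordicine-I library and 121 CPM in the vehicle library (0.516), where 13.5% of all genes were lower, but its log2 ratio was 0.13 without removal of doublets. Cxcl2 was called higher in naive T-like cells, at 1164 CPM in the Momordicine-I library and 372 CPM in the vehicle library (3.13), but 1 Momordicine-I cell held 73.2% of that count, and without the top cells the log2 ratio was -0.19. In that class 9.13% of all genes were higher and 19.7% lower. Cxcr2 in NK-like cells was called higher from 24 UMIs in the Momordicine-I and 7 in the vehicle library, where 5.44% of all genes were higher, and had a log2 ratio of -0.22 without removal of doublets. Cxcl1 in gamma-delta T-like cells had 20 UMIs in the Momordicine-I and 2 in the vehicle library, where 12.5% of all genes were higher, but 1 Momordicine-I cell held 80% of its library's count. Its ratio of 2.89 has an interval of 0.702 to 25.5, and without the top cells the log2 ratio was 0.18.

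Across the 11 classes with at least 50 cells and 100000 UMIs in each library, Cxcl3 was the member with the most classes lower. It was lower in 6 classes, higher in 1, and had a ratio below 1 in 10. The lower calls in dendritic-like, gamma-delta T-like and low-UMI neutrophil-like cells were lost under alternatives given above. So was the higher call in Treg-like cells. In carcinoma-like cells the lower call of Cxcl3 held under 13 of 14 alternatives, with a highest ratio of 0.907. Cxcl2 was higher in 2 and lower in 2 of the 11. Cxcl1 was higher in 2 and lower in 3 of the 8 classes where it had at least 20 UMIs, Cxcr2 higher in 2 and lower in 2 of 8, and Cxcl5 lower in 1 of 2. Of all genes measured, between 4.39% (neutrophil-like) and 19.7% (naive T-like) were lower in the 11 classes. Between 5.44% (NK-like) and 15.2% (low-UMI neutrophil-like) were higher. Some calls of Cxcl1, Cxcl2 and Cxcr2 also changed sign under alternatives. These classes share free RNA and library depth, so they are not independent measurements.

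Across clusters and libraries, levels of Cxcl2 and Cxcr2 went together. Over 35 points from 19 clusters, Pearson's r of log2(CPM + 10) was 0.97 between Cxcl2 and Cxcr2, 0.97 between Cxcl2 and Cxcl3 and 0.95 between Cxcl3 and Cxcr2. Cxcl1 was less alike, at 0.52 with Cxcl2 and 0.46 with Cxcl5, and Cxcl5 had r of -0.28 with Cxcl2. The points share libraries and free RNA, and the values describe cell classes, with no test. Of 5957 genes, those most like Cxcl2 were Clec4e, a C-type lectin receptor, Cebpb, a myeloid transcription factor, and Nlrp3, an inflammasome sensor, each at 0.99. Most like Cxcl3 were Rab20, Clec4d and the lipopolysaccharide co-receptor Cd14, each at 0.98. Most like Cxcr2 were Dmxl2 and Cebpb at 0.99 and the G-CSF receptor Csf3r at 0.98. Most like Cxcl5 were Smoc2 at 0.99 and Ankrd1 and Il24 at 0.98, and most like Cxcl1 were the activin subunit Inhba and the cytokine subunit Il23a at 0.88 and Hspa4l at 0.87.

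Beyond the members, 69 genes in 7 lists were read in neutrophil-like cells, with 2 higher and 2 lower in all, beside 12.9% of all genes higher and 4.39% lower. In the list of other CXCR2 ligands and related receptors 4 of 5 genes were measured, with 0 higher and 1 lower, the lung chemokine Cxcl15 with 10 UMIs in the Momordicine-I and 15 in the vehicle library. The median log2 ratio of that list was -0.37, against 0.15 for all genes. Mif, a cytokine that also binds CXCR2, stood at 707 CPM in the Momordicine-I library and 593 CPM in the vehicle library (ratio 1.19).

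Among 16 of 16 genes of CXCR2 signalling, arrest and desensitisation, 0 were higher and 0 lower (median log2 ratio 0.09). Gnai3, a G protein subunit, stood at 135 CPM in the Momordicine-I and 161 CPM in the vehicle library, and Prex1, a Rac exchange factor, at 85.8 CPM with Momordicine-I and 76.7 CPM with vehicle. Rgs2, a regulator of G protein signalling, stood at 366 CPM with Momordicine-I and 341 CPM with vehicle and the GTPase Rac2 at 446 CPM with Momordicine-I and 467 CPM with vehicle. Other traffic and adhesion genes gave 0 higher and 0 lower of 11 (median -0.07). Cxcr4, which retains neutrophils in marrow, stood at 891 CPM in the Momordicine-I library and 778 CPM in the vehicle library. The integrin chain Itgb2 stood at 191 CPM with Momordicine-I and 233 CPM with vehicle, and the formyl peptide receptor Fpr2 at 293 CPM with Momordicine-I and 311 CPM with vehicle.

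Inducers of the ligands gave 1 higher and 1 lower of 6 measured among 8 in neutrophil-like cells (median -0.15), both from few molecules. Il17a had 15 UMIs in the Momordicine-I and 5 in the vehicle library, and Il6 had 16 with Momordicine-I and 37 with vehicle. Il1b, an inducer that neutrophils make themselves, stood at 14207 CPM in the Momordicine-I library and 12185 CPM in the vehicle library (ratio 1.17). Il1a stood at 193 CPM with Momordicine-I and 230 CPM with vehicle and Tnf at 188 CPM with Momordicine-I and 206 CPM with vehicle. Over the whole libraries Il17a was higher, at 36.6 CPM in the Momordicine-I library and 9.92 CPM in the vehicle library, and Il6 was lower, at 27.6 CPM with Momordicine-I and 62.0 CPM with vehicle. With Csf2, 2 of the 8 inducers were higher and 1 was lower there, where 6.78% of all genes were higher and 6.9% lower. Gamma-delta T-like cells, known makers of interleukin-17, had 1111 CPM of Il17a in the Momordicine-I library and 981 CPM in the vehicle library. They numbered 172 in the Momordicine-I and 54 in the vehicle library.

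Receptors of the inducers gave 1 higher and 0 lower of 9 measured among 11 (median -0.04), the interleukin-1 receptor Il1r1 with 22 UMIs in the Momordicine-I and 4 in the vehicle library. Its partner Il1rap stood at 360 CPM in the Momordicine-I library and 460 CPM in the vehicle library. Il17ra stood at 232 CPM with Momordicine-I and 185 CPM with vehicle, the adaptor Myd88 at 83.1 CPM with Momordicine-I and 67.2 CPM with vehicle and Tlr4 at 154 CPM with Momordicine-I and 174 CPM with vehicle. In the NF-kB list 0 were higher and 0 lower of 11 (median -0.08). Nfkb1 stood at 177 CPM in the Momordicine-I library and 208 CPM in the vehicle library, Rel at 160 CPM with Momordicine-I and 175 CPM with vehicle, the inhibitor Nfkbib at 59.6 CPM with Momordicine-I and 68.3 CPM with vehicle and Nfkbiz at 1772 CPM with Momordicine-I and 1726 CPM with vehicle.

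Factors in the decay of chemokine mRNA gave 0 higher and 0 lower of 7 (median -0.03). Zfp36l2, which binds AU-rich stretches, stood at 1581 CPM in the Momordicine-I library and 1248 CPM in the vehicle library (1.27), and its relative Zfp36l1 at 1114 CPM with Momordicine-I and 1210 CPM with vehicle (0.920). The AU-binding protein Hnrnpd stood at 79.2 CPM with Momordicine-I and 62.1 CPM with vehicle. Zc3h12a, the ribonuclease Regnase-1, stood at 281 CPM with Momordicine-I and 309 CPM with vehicle.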

How the data were processed

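Single-cell RNA was measured in 1 library per group, each from the pooled tumours of 3 mice, made with the 10x Genomics 3′ kit v3.1 per the labels' protocols. The authors deposited whole-number UMI counts per gene and barcode. Cell Ranger 6.0.2 and the mm10 build are named in the submitters' processing notes. The GENCODE annotation gave gene positions, and RefSeq gave promoter sequences.

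Here, barcodes with fewer than 200 genes (26 Momordicine-I and 25 vehicle) or over 10% mitochondrial UMIs (297 Momordicine-I and 253 vehicle) were removed. Scrublet's automatic threshold marked 1 Momordicine-I and 2 vehicle barcodes, so the highest scores at 0.8% per 1000 barcodes were marked as doublets instead. Clusters were drawn in scanpy 1.11.5 (Python 3.11.15) from 2000 variable genes, leaving out the members and their pathway lists (30 components, 15 neighbours, Leiden resolution 1) and named from 22 marker lists. UMIs were summed per class and library and given as CPM. A gene was measured in a class with at least 20 UMIs over both libraries. Shares have exact Clopper-Pearson and ratios exact conditional binomial 95% intervals, which treat UMIs of 1 cell as independent. With 1 library per group no test was possible. Thinning to 1500 UMIs left out 511 Momordicine-I and 372 vehicle cells. The ratio, call and interval steps were tested on simulated summed counts of neutrophil-like cells, with UMIs drawn independently. The filters, doublet marking, clustering, class naming and thinning were not tested in this way. The members and lists were chosen with earlier results of these data known. The members were read in the 11 classes with at least 50 cells and 100000 UMIs in each library. Smaller classes were not covered in full. From each list up to 4 genes of at least 50 CPM were named, those whose ratio interval lay farthest from 1 in neutrophil-like cells. A gene that this rule names is not reported here. For each member the 3 genes most like it were named, among genes with at least 200 UMIs. The alternatives tried are other doublet, clustering, naming and filter choices, thinning, means over cells and the removal of single cells, which was added for the neutrophil-like clusters after the data were seen.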

Additional observations from a re-analysis of the deposited data

Results flagged for a closer look

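Cxcl1, Cxcl2, Cxcl3 and Cxcr2 each had a ratio, Momordicine-I over vehicle, above 1.5 in 1 class and below its inverse in another. The difference between the classes was not tested. Cxcl1 had a ratio of 2.46 in the mixed neutrophil and macrophage-like cluster and 0.308 in Treg-like cells. Cxcl2 had a ratio of 3.13 in naive T-like cells and 0.370 in dendritic-like cells. Cxcl3 had a ratio of 2.04 in Treg-like cells and 0.240 in dendritic-like cells. Cxcr2 had a ratio of 3.03 in NK-like cells, from 24 UMIs in the Momordicine-I and 7 in the vehicle library, and 0.325 in dendritic-like cells. Several of these values did not hold under other processing. The sign changed for Treg-like Cxcl1 under 4 of 13 alternatives and for Treg-like Cxcl3 under 3 of 13. It changed for naive T-like Cxcl2 under 3 of 12 and for NK-like Cxcr2 under 1 of 13. The dendritic-like values fell short of the call without removal of doublets. Cxcl1 in the mixed cluster kept its sign under all 10. Within neutrophil-like cells, Cxcl1 had a ratio of 2.17 in cluster 8 and 0.477 in cluster 3, and this difference was likewise not tested.

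Barcodes removed by the filters, 323 in the Momordicine-I and 278 in the vehicle library, also held UMIs of the members. All counts were above the 3 UMIs that a count of 0 allows, except that of Cxcl5 in the vehicle library, which was at that limit. Cxcl1 had 163 such UMIs in the Momordicine-I and 59 in the vehicle library. Cxcl2 had 5034 in the Momordicine-I and 3462 in the vehicle library, and Cxcl3 had 722 in the Momordicine-I and 453 in the vehicle library. Cxcr2 had 106 in the Momordicine-I and 55 in the vehicle library. Cxcl5 had 17 in the Momordicine-I library and 3 in the vehicle library.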

How the results depend on the processing

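No paired analysis was possible because each group had 1 library, and for the same reason no replicate could be left out. Of 484 alternative log2 ratios over 40 pairs of a member and a class, 436 kept their direction. In neutrophil-like cells the log2 ratio was -0.58 for Cxcl3, -0.28 for Cxcl1, -0.14 for Cxcl2 and 0.17 for Cxcr2. Without removal of doublets it was -0.62 for Cxcl3 and -0.16 for Cxcl2, at Leiden resolution 0.5 it was -0.15 for Cxcl2, and at resolution 2 it was -0.60 for Cxcl3 and -0.15 for Cxcl2. With each library clustered on its own it was -0.43 for Cxcl3, -0.11 for Cxcl2 and 0.22 for Cxcr2. With each cell classed by its own marker score it was -0.56 for Cxcl3, 0.0058 for Cxcl1 and -0.12 for Cxcl2. With cells thinned to 1500 UMIs it was -0.60 for Cxcl3, -0.46 for Cxcl1, -0.17 for Cxcl2 and 0.21 for Cxcr2. As a mean over cells it was -0.15 for Cxcl2 and 0.21 for Cxcr2. Relative to the median of all genes it was -0.73 for Cxcl3, -0.43 for Cxcl1, -0.29 for Cxcl2 and 0.016 for Cxcr2. With clusters weighted by their pooled share it was -0.52 for Cxcl3. With the low-UMI and immature clusters joined, an alternative chosen after the data were seen, it was -0.54 for Cxcl3, -0.10 for Cxcl2 and 0.21 for Cxcr2. Cxcl3 passed the 1.5-fold call under 5 of 14 alternatives.

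In carcinoma-like cells the log2 ratio was -1.64 for Cxcl5 and -0.42 for Cxcl1. By own marker score it was -1.87 for Cxcl5 and -0.54 for Cxcl1, and at no more than 5% mitochondrial UMIs -1.37 for Cxcl5 and -0.83 for Cxcl1. Thinned to 1500 UMIs it was -3.70 for Cxcl5 and -0.73 for Cxcl1, and as a mean over cells -4.29 for Cxcl5 and -0.66 for Cxcl1. For Cxcl1 it was -0.26 under the limit on neutrophil markers and -0.32 relative to the median of all genes. For Cxcl5 it was -1.44 in cells over 10000 UMIs alone, chosen after the data were seen. Cxcl5 stayed past the call under all 14 alternatives.

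The 2 list genes higher in neutrophil-like cells became 1 with each library clustered on its own, 0 after thinning, 1 without the top cell and 5 with no minimum of 20 UMIs. The 2 lower became 0 by own marker score and 0 after thinning.

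In total 21 values changed sign from a reported value past the 1.5-fold call, and the cause was not tested. In Treg-like cells Cxcl1 was 0.19 by own marker score, 0.68 under the limit on neutrophil markers, 0.49 thinned and 0.48 without the top cell. Cxcl3 there was -0.21 at resolution 0.5, -0.99 by own marker score and -0.78 under the limit, and Cxcr2 was -0.15 by own score and -0.49 under the limit. In naive T-like cells Cxcl2 was -0.32 by own score, -0.21 under the limit and -0.19 without the top cell. In monocyte-like cells Cxcl1 was 1.86 under the limit and 0.39 thinned. Cxcr2 in carcinoma-like cells was 0.47 thinned and 0.70 as a mean over cells. Cxcr2 in NK-like cells was -0.22 without removal of doublets. In gamma-delta T-like cells Cxcl1 was -0.31 at no more than 5% mitochondrial UMIs, and Cxcl3 was 0.13 without removal of doublets and 0.43 by own score. Cxcl1 in low-UMI neutrophil-like cells was 0.38 by own score.

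All values compare 2 libraries, so differences between mice were not measured. The share of Cxcl2 UMIs in neutrophil-like cells ranged over 66.1 to 87.9% with Momordicine-I and 70.7 to 87.4% with vehicle under the alternatives.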

Other observations

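Csf2, which encodes the myeloid growth factor GM-CSF, was looked at in carcinoma-like cells after its values were seen. It had 89 UMIs there in the Momordicine-I library (14.5 CPM) and 4 in the vehicle library (1.03 CPM). These came from 8 of 273 Momordicine-I cells and 3 of 135 vehicle cells. One Momordicine-I cell held 49.4% of the count, and without it Csf2 stood at 7.59 CPM. Over the whole libraries Csf2 stood at 13.7 CPM in the Momordicine-I library and 7.11 CPM in the vehicle library. Ppbp stood at 40.4 CPM in the Momordicine-I library and 11.2 CPM in the vehicle library over all cells. In gamma-delta T-like cells Il17f stood at 52.2 CPM in the Momordicine-I library and 213 CPM in the vehicle library.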
